A study of Mus musculus with 6 samples.

Results

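The replication-dependent histone genes are the clustered genes that supply the bulk of linker histone H1 and of the core histones H2A, H2B, H3 and H4. They were taken as every row of the 3 deposited expression tables whose gene name begins with Hist1h, Hist2h, Hist3h or Hist4h. That gave 67 of 22558 rows: 6 H1, 18 H2A, 18 H2B, 12 H3 and 13 H4 genes. Of these, 53 lie in the Hist1 cluster on chromosome 13, 10 in the Hist2 cluster on chromosome 3, 3 in the Hist3 cluster on chromosome 11 and 1 (Hist4h4) on chromosome 6. Their names come from 1 naming scheme, and the rule uses no expression value. It was set with earlier results of these data known, as were the gene lists used below.

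Messenger RNA was sequenced from 6 mouse pluripotent cultures, with 1 library for each. The embryonic stem cells (ESC), of 129Sv background, were a Cre-deleted H2A.X knockout (KO) culture and its Flox/Flox counterpart, in which recombination sites flank the gene. The variant H2A.X is phosphorylated where both DNA strands break. The induced pluripotent stem cells (iPSC), of mixed 129Sv/C57 background, were a 4N- and a 4N+ line reprogrammed from peritoneal fibroblasts (PF) and a 4N- and a 4N+ line reprogrammed from tail tip fibroblasts (TTF). The labels do not spell out 4N. It was read here, from knowledge outside them, as the outcome of tetraploid complementation, which tests whether a line can form an embryo in a tetraploid host. All 6 cultures were at passage 25, had been grown on feeder cells with LIF and were moved to gelatin before lysis. With 1 culture per ESC condition and 1 line per label from each parental cell type, a difference between cultures of a pair and a difference between their conditions cannot be told apart.

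Histone synthesis is tied to DNA replication. In S phase the factor NPAT gathers at these clusters and drives their transcription. Their messages are then cut behind a conserved stem-loop, which is bound by the stem-loop binding protein SLBP, and they end there without a poly(A) tail. Libraries of the TruSeq mRNA kind are made from polyadenylated RNA, so the values below describe the part of histone RNA that such a library retains and not the histone messages of the cell as a whole. How much of it carries a tail was not tested.

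The stem-loop is the sequence by which these genes are known, and the members the results turn on are shown with it. The letters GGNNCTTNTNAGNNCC were searched in the sense strand of the GENCODE vM21 transcripts. They were present in 46 of the 67 members, against 0.28% of the other gene names. Of the 21 members without them, 15 have a transcript model whose last bases are a stop codon, with no stretch behind it that could hold them. The most frequent form stood in 26 members, of the H1, H2A, H2B and H3 classes. A form with another base pair inside the stem stood in 7 members, all of them H4 genes. Below, capitals mark the 16-base stem-loop and the lower case letters the bases on either side, in DNA letters.
Hist1h1c: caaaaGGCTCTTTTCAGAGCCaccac
Hist3h2a: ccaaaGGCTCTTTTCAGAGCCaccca
Hist3h2ba: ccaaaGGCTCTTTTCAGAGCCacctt
Hist2h3c1: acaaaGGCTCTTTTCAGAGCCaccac
Hist1h3c: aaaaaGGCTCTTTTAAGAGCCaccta
Hist1h1t: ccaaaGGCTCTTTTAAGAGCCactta
Hist1h4i: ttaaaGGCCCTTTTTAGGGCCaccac
Hist1h4d: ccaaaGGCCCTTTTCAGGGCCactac
Hist1h4b: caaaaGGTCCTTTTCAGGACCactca
In Hist1h1c the GENCODE model runs 840 bases beyond the stem-loop, in Hist3h2a 1643 bases, in Hist2h3c1 1162 bases, in Hist1h4d 770 bases and in Hist1h4i 330 bases. In Hist1h4b it ends after another 28 bases. The model of Hist1h2bc, the member with the highest mean FPKM, does not contain these letters.

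Values are given as FPKM, a fragment count divided by transcript length and by depth, so that levels of genes of unlike length can be compared. Each table was treated as scaled by itself, so a level is compared with the other library of its own table. Effective depth was 39057201 to 61177431 fragments per library. In that range 1 fragment on the shortest gene models, of 312 bp, was worth 0.147 to 0.231 FPKM. A total of 40 members have models of at most 500 bp, so many of their values rest on a few fragments. H2afx, the gene for H2A.X, stood at 6.18 FPKM in KO ESC and 34.9 FPKM in Flox/Flox ESC, which is the direction of the labels. All 8 pluripotency markers listed (Pou5f1, Nanog, Sox2, Zfp42, Esrrb, Klf4, Tdgf1 and Dppa5a) were above 5 FPKM in every library.

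Most clustered histone genes were near the floor of detection in every culture. Only 19 members reached 1 FPKM in any library and 4 reached 5 FPKM (Hist1h1c, Hist1h2bc, Hist1h4i and Hist1h1a). In all, 25 members were above 0 in all 6 libraries. The number at 1 FPKM or more was 7 in KO and 3 in Flox/Flox ESC, 9 in 4N- and 8 in 4N+ PF iPSC, and 15 in 4N- and 11 in 4N+ TTF iPSC. The 67 members together summed to 58.2 FPKM in KO ESC and 16.2 FPKM in Flox/Flox ESC, to 26.3 FPKM in 4N- and 25.0 FPKM in 4N+ PF iPSC, and to 52.3 FPKM in 4N- and 39.8 FPKM in 4N+ TTF iPSC. These sums were 0.00476% to 0.022% of all FPKM in a library.

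A total of 10 members were listed at 0 in all 6 libraries. All 10 share more than 50% of their 50-base stretches with other gene names, counted together. They are 6 H2A, 1 H2B, 1 H3 and 2 H4 genes, and some of these rows give the same locus, as Hist1h2ao and Hist1h2ap do. In all, 31 members pass that mark. They are said here to have a near-identical copy, although the sharing can be spread over several genes and no single copy was sought. How the authors divided fragments between copies is not given in the sources used here, so an exact 0 in these genes is a listing and not a measured absence. Of the genes described below, Hist2h3c1, Hist2h2bb, Hist1h4b, Hist1h2ag and Hist1h2bj have such a copy, and their values are uncertain in the same way. None of the H1 genes was at 0 throughout.

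Because many values are small, FPKM was also turned back into whole fragments. This worked for 53 of the 57 members above 0 in any library, each within 0.1 of a whole number. Hist1h1e, Hist1h2bc, Hist1h2be and Hist1h2bp, named here because they were the exceptions, gave no whole numbers and have no fragment counts below. Fragment ratios are scaled to effective depth and carry conditional exact binomial 95% intervals, which cover counting error only. They say how well 2 libraries were measured, not how far 2 cultures of 1 condition would differ.

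Scaled to depth, the KO ESC library held more clustered histone fragments than the Flox/Flox ESC library, and a few genes held most of them. This describes only the histone RNA that an mRNA library retains. Over the 63 members with fragment counts, or with 0 throughout, KO ESC had 1237 fragments and Flox/Flox ESC had 426, a depth-scaled ratio of 3.71 (3.32 to 4.15). Without Hist1h1c, a setting chosen after seeing the data, the ratio was 2.64 (2.31 to 3.01). Of 7 members at 1 FPKM or more in either library, all 7 were higher in KO ESC and 5 were at least 2-fold higher on the log2(FPKM + 1) scale. Over all 12086 genes so measured, 48.3% were higher in KO ESC and 7.49% were at least 2-fold higher. All 7 reached 1 FPKM in KO ESC and only 3 did in Flox/Flox ESC, so that filter favours members that were high in KO ESC. With no filter, 36 of the 43 members above 0 in either library were higher in KO ESC, against 58.7% of all 18625 such genes. With 1 library per condition there was no replicate and no test of these differences. In bulk RNA, more cells of a type and more RNA per cell cannot be told apart.

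Linker histones bind where DNA enters and leaves the nucleosome. Hist1h1c, which encodes the H1 subtype H1.2 and lies on mm9 at chr13:23830676-23832236, stood at 10.4 FPKM in KO ESC against 1.37 FPKM in Flox/Flox ESC. That is 549 against 93 fragments, a ratio of 7.54 (6.04 to 9.49). In iPSC, from other tables, Hist1h1c stood at 2.12 FPKM in 4N- and 2.62 FPKM in 4N+ PF lines and at 1.94 FPKM in 4N- and 1.57 FPKM in 4N+ TTF lines. In the authors' deposited table it was the only member called in any of the 3 comparisons, with a q-value of 0.0435 in KO against Flox/Flox ESC. That table calls 1.44% of the 14589 genes it tested there, and 1 of the 25 members it tested. Its q-values also rest on 1 library per condition, with no replicate. In the PF table the authors called 0 of 27 tested members beside 0.537% of all tested genes, and in the TTF table the count was 0 of 43 beside 0.301%.

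The other H1 genes were much lower in ESC. Hist1h1a, the H1.1 gene at mm9 chr13:23855537-23856283, stood at 0.802 FPKM in KO ESC and 0.517 FPKM in Flox/Flox ESC, with a fragment ratio of 1.55 (0.719 to 3.40). The H1.5 gene Hist1h1b stood at 0.547 FPKM in KO ESC and 0.129 FPKM in Flox/Flox ESC, from 10 and 3 fragments (ratio 4.25, 1.10 to 24.1). Summed over the 5 H1 genes with fragments, the ratio of KO to Flox/Flox ESC was 6.46 (5.29 to 7.94), from 597 and 118 fragments, of which most belonged to Hist1h1c. Without it the ratio was 2.45 (1.48 to 4.15), from 48 and 25 fragments.

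Among core histones, Hist1h2bc, an H2B gene at mm9 chr13:23776068-23784349, had the highest FPKM of any member in KO ESC. It stood at 22.1 FPKM in KO ESC against 5.05 FPKM in Flox/Flox ESC, a log2(FPKM + 1) difference of 1.93. Together Hist1h2bc and Hist1h1c made up 55.8% of the members' summed FPKM in KO ESC and 39.7% in Flox/Flox ESC. In the authors' deposited table the q-value of Hist1h2bc was 0.257, so it was not called there.

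The small Hist3 cluster was higher in KO ESC as a group. Hist3h2a, an H2A gene at mm9 chr11:58768187-58770176, stood at 3.20 FPKM in KO ESC against 0.854 FPKM in Flox/Flox ESC, from 223 and 76 fragments (ratio 3.75, 2.87 to 4.93). Its neighbour Hist3h2ba, an H2B gene, stood at 3.69 FPKM in KO ESC against 0.675 FPKM in Flox/Flox ESC, from 60 and 14 fragments (ratio 5.47, 3.02 to 10.6). The pseudogene between them, Hist3h2bb-ps, had 1 fragment in each of these libraries.

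H4 and H3 genes gave smaller numbers in the same direction. Hist1h4i, at mm9 chr13:22132685-22133221, stood at 6.77 FPKM in KO ESC against 2.53 FPKM in Flox/Flox ESC, from 88 and 42 fragments (ratio 2.67, 1.83 to 3.96). It carried most of the H4 fragments, which summed to 100 in KO ESC and 49 in Flox/Flox ESC (ratio 2.61, 1.83 to 3.75). Hist2h3c1, an H3 gene with a near-identical copy, stood at 0.869 FPKM in KO ESC and 0.272 FPKM in Flox/Flox ESC, from 55 and 22 fragments (ratio 3.19, 1.91 to 5.50). Hist1h3c had 4 fragments in KO ESC and none in Flox/Flox ESC, and the interval of that ratio starts at 0.843, so it includes 1.

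Other members lay closer together or rested on few fragments. Hist2h2bb, an H2B gene of the Hist2 cluster, stood at 0.62 FPKM in KO ESC and 0.555 FPKM in Flox/Flox ESC (ratio 1.12, 0.345 to 3.52). Hist1h2ag had 3 fragments in KO ESC and 4 in Flox/Flox ESC (ratio 0.957, 0.140 to 5.66), which at this depth leaves a several-fold difference undetectable either way. Hist2h2be, chosen after its values were seen because it is one of the 7 measured members, stood at 1.25 FPKM in KO ESC and 0.881 FPKM in Flox/Flox ESC (ratio 1.42, 1.08 to 1.86). The seventh, Hist1h2bj, stood at 1.01 FPKM in KO ESC and 0.113 FPKM in Flox/Flox ESC and was chosen in the same way.

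**Figure D1:**
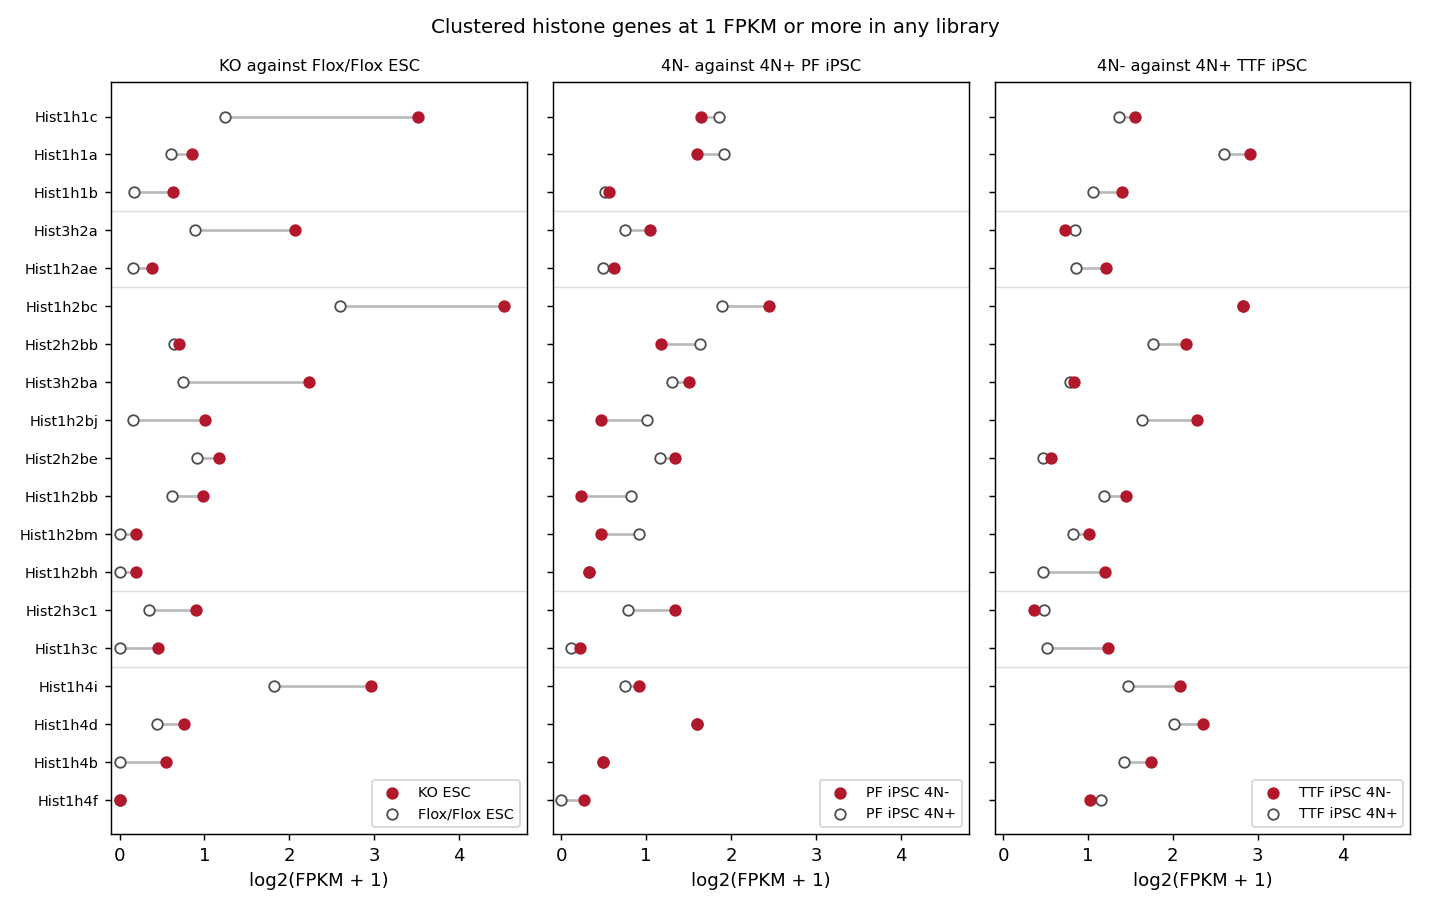
Levels of the 19 members that reached 1 FPKM in any library, on the log2(FPKM + 1) scale (x axis), with genes grouped by class from H1 at the top to H4 at the bottom. Filled points are KO ESC or 4N- iPSC, open points Flox/Flox ESC or 4N+ iPSC; grey lines join the 2 libraries of a table. Hist1h1c, Hist1h2bc, Hist3h2a, Hist3h2ba and Hist1h4i lie farthest apart in the ESC panel, and none of the 19 is 2-fold apart on this scale in either iPSC panel.

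Genes that make, carry or accompany histone messages did not share this direction in the ESC pair. Of 17 listed S phase genes, which copy DNA or prepare for it, all 17 were lower in KO ESC, with a median log2(FPKM + 1) difference of -0.69. The replication clamp gene Pcna stood at 57.9 FPKM in KO ESC against 104 FPKM in Flox/Flox ESC. All 11 histone chaperone genes were lower as well, with a median of -0.44, and Nasp, whose protein holds H3 and H4 before deposition, stood at 183 FPKM in KO ESC against 489 FPKM in Flox/Flox ESC. Over all measured genes 51.7% were lower in KO ESC and the median difference was -0.03. Among the 6901 genes of at least 5 FPKM in both libraries, the kind most listed genes are, the median was -0.20.

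Factors that produce histone messages were mostly lower too, in 19 of 23 cases, with a median of -0.47. Slbp stood at 31.4 FPKM in KO ESC against 61.1 FPKM in Flox/Flox ESC, and Npat at 10.9 FPKM in KO ESC against 14.0 FPKM in Flox/Flox ESC. At least 2-fold lower was 1 of the 23, Srrt, at 28.2 FPKM in KO ESC against 58.6 FPKM in Flox/Flox ESC; 3.72% of all measured genes were at least 2-fold lower. Replacement histone genes, listed here for having polyadenylated messages, were split, with 5 of 11 measured higher and 6 lower. The 6 include H2afx, the gene deleted in KO ESC. Whether all their messages carry a tail was not tested. H1f0, the replacement linker histone, stood at 31.1 FPKM in KO ESC against 14.6 FPKM in Flox/Flox ESC, while H2afz stood at 9.76 FPKM in KO ESC against 20.3 FPKM in Flox/Flox ESC.

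Markers of other cell types differed between the ESC cultures as well. Of 6 measured trophoblast markers, 5 were at least 2-fold higher in KO ESC, and the 8 listed summed to 891 FPKM in KO ESC against 36.7 FPKM in Flox/Flox ESC, led by Krt18 at 659 FPKM in KO ESC against 26.7 FPKM in Flox/Flox ESC. Krt8 of that list followed, at 188 FPKM in KO ESC against 6.8 FPKM in Flox/Flox ESC. Ascl2 was slightly lower, at 1.65 FPKM in KO ESC against 1.81 FPKM in Flox/Flox ESC. Elf5 was near 0, at 0.0382 FPKM in KO ESC and 0.0199 FPKM in Flox/Flox ESC. Primitive endoderm markers summed to 5.16 FPKM in KO ESC and 2.11 FPKM in Flox/Flox ESC, neural markers to 10.3 FPKM in KO ESC and 4.90 FPKM in Flox/Flox ESC, and fibroblast markers to 5.71 FPKM in KO ESC and 1.80 FPKM in Flox/Flox ESC. Most of the neural sum was Nes, at 8.34 FPKM in KO ESC and 3.4 FPKM in Flox/Flox ESC. Pax6 stood at 1.55 FPKM in KO ESC and 1.12 FPKM in Flox/Flox ESC, and Sox1 at 0.441 and 0.387 FPKM. Most of the fibroblast sum was Thy1, at 4.90 FPKM in KO ESC and 1.55 FPKM in Flox/Flox ESC. The 3 collagens, Postn and Dcn were near 0 and Lum was at 0 in both. All 8 pluripotency markers were lower in KO ESC, by a median of -0.78, although Nanog stood at 111 FPKM in both. The part of these cells in the histone values was not tested.

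In the PF iPSC pair the clustered histone genes lay close together. Of 10 members measured, 5 were higher in the 4N- line and 4 lower, with a median log2(FPKM + 1) difference of 0.09, and none was 2-fold apart on that scale, which pulls low values together. Over all 11606 measured genes 31.5% were higher in the 4N- line and the median was -0.13. A 2-fold difference was seen in 0.577% of genes towards the 4N- line and in 0.974% towards the 4N+ line. With no filter, 24 of 50 members were higher, 17 lower and 9 equal, beside 38.1% of all 17823 such genes that were higher. Among genes of at least 5 FPKM in both libraries the median was -0.17, so the members are read against a pair that leans lower in the 4N- line. Summed fragments were 717 in the 4N- line and 637 in the 4N+ line, a ratio of 1.13 (1.01 to 1.25).

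The PF sum combined histone classes of opposite direction. The H3 genes summed to 134 fragments in the 4N- line against 63 in the 4N+ line (ratio 2.13, 1.57 to 2.92), while the H1 genes summed to 199 in the 4N- line against 252 in the 4N+ line (ratio 0.79, 0.652 to 0.955). Without Hist1h1c the H1 ratio was 0.755 (0.547 to 1.04). Hist2h3c1 made up most of the H3 sum, at 1.53 FPKM in 4N- cells against 0.723 FPKM in 4N+ cells, from 110 and 52 fragments (ratio 2.12, 1.51 to 3.0). It shares 100% of its 50-base stretches with other gene names, so its value and the H3 sum are uncertain. Hist1h3a had 6 fragments in the 4N- line and none in the 4N+ line, and the interval of that ratio starts at 1.18.

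Single linker genes of that pair had intervals that include 1. Hist1h1a stood at 2.03 FPKM in 4N- cells against 2.78 FPKM in 4N+ cells (ratio 0.731, 0.495 to 1.07). Hist1h1c, at 2.12 FPKM in 4N- and 2.62 FPKM in 4N+ cells, had a ratio of 0.81 (0.637 to 1.03). Hist1h1b, with 10 fragments in the 4N- line and 9 in the 4N+ line, had a ratio of 1.11 (0.406 to 3.09). Hist3h2a was higher, at 1.07 FPKM in 4N- cells against 0.681 FPKM in 4N+ cells (ratio 1.57, 1.11 to 2.26). Hist1h2bc stood at 4.47 FPKM in 4N- cells against 2.71 FPKM in 4N+ cells, a log2(FPKM + 1) difference of 0.56. Hist1h4d had 10 fragments in each line (ratio 1.0, 0.374 to 2.68), and Hist2h2bb, at 1.25 FPKM in 4N- and 2.10 FPKM in 4N+ cells, had a ratio of 0.593 (0.298 to 1.14). Hist1h2bj, at 0.381 FPKM in 4N- and 1.02 FPKM in 4N+ cells, had 3 and 8 fragments (ratio 0.375, 0.0641 to 1.56).

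Fibroblast markers summed to 4.92 FPKM in the PF 4N- line and 17.1 FPKM in the PF 4N+ line, with Col1a2 at 0.0228 FPKM in 4N- and 5.41 FPKM in 4N+ cells, and Lum was at 0 in both. Their part in the PF values was not tested. Histone production factors were lower in the 4N- line in 20 of 23 cases and higher in 3, with a median of -0.21, beside the 68.1% of all genes that were lower. S phase genes were split, with 6 of 17 higher and 11 lower, and so were chaperones, with 4 of 11 higher and 7 lower. Of 11 measured replacement histone genes 10 were lower in the 4N- line, with H1f0 at 18.9 FPKM in 4N- cells against 29.6 FPKM in 4N+ cells.

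In the TTF iPSC pair most measured members were somewhat higher in the 4N- line. Of 15 measured, 13 were higher and 2 lower, with a median log2(FPKM + 1) difference of 0.34, against a median of 0.0 over all 11354 genes, of which 50.1% were higher and 49.9% lower. All 15 reached 1 FPKM in the 4N- line and 11 did in the 4N+ line. A filter at 1 FPKM thus favours members that were high in the 4N- line. With no filter 33 of 56 members were higher and 23 lower, beside 51.0% of all 18487 such genes that were higher. The members' median was then 0.1. On the log2(FPKM + 1) scale no member was 2-fold apart, while 0.185% of all genes were 2-fold or more higher in the 4N- line and 0.564% were 2-fold or more lower. Summed fragments were 1131 in the 4N- line and 858 in the 4N+ line, a ratio of 1.27 (1.17 to 1.39).

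Hist1h1a, Hist1h2bc, Hist1h4d and Hist2h2bb were among the more abundant members in the TTF lines. Hist1h1a had the highest FPKM of any member in the 4N- line, at 6.53 FPKM in 4N- cells against 5.07 FPKM in 4N+ cells, from 217 and 163 fragments (ratio 1.29, 1.05 to 1.59). Hist1h2bc was level, at 6.08 FPKM in 4N- cells against 6.10 FPKM in 4N+ cells. Hist1h4d stood at 4.13 FPKM in 4N- cells against 3.05 FPKM in 4N+ cells (ratio 1.35, 0.736 to 2.53), and Hist2h2bb at 3.45 FPKM in 4N- and 2.40 FPKM in 4N+ cells (ratio 1.44, 0.953 to 2.19). Both were below 1 FPKM in the ESC libraries, from another table.

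Further genes of the H1, H2A, H2B, H3 and H4 classes reached 1 FPKM in the TTF pair. Hist1h2bj stood at 3.87 FPKM in 4N- cells against 2.10 FPKM in 4N+ cells, from 42 and 22 fragments (ratio 1.85, 1.08 to 3.25). The H2B genes Hist1h2bh and Hist1h2bb were chosen after their values were seen. Hist1h2bh stood at 1.29 FPKM in 4N- and 0.382 FPKM in 4N+ cells (ratio 3.38, 1.06 to 14.1). Hist1h2bb stood at 1.73 FPKM in 4N- and 1.28 FPKM in 4N+ cells (ratio 1.35, 0.736 to 2.53). Hist1h4i stood at 3.24 FPKM in 4N- cells against 1.78 FPKM in 4N+ cells, from 66 and 35 fragments (ratio 1.82, 1.19 to 2.83). Hist1h3c stood at 1.36 FPKM in 4N- cells against 0.429 FPKM in 4N+ cells, from 23 and 7 fragments (ratio 3.18, 1.32 to 8.77). For Hist1h1b, at 1.64 FPKM in 4N- and 1.08 FPKM in 4N+ cells, the ratio was 1.51 (0.938 to 2.48). For Hist1h2ae, an H2A gene at 1.31 FPKM in 4N- and 0.811 FPKM in 4N+ cells, it was 1.61 (0.948 to 2.79). For Hist1h4b, at 2.36 FPKM in 4N- and 1.68 FPKM in 4N+ cells, it was 1.41 (0.613 to 3.35). These 3 intervals include 1. Hist1h2bm and Hist1h4f were also chosen after their values were seen. Hist1h2bm stood at 1.01 FPKM in 4N- and 0.763 FPKM in 4N+ cells (ratio 1.33, 0.487 to 3.81). Hist1h4f was lower, at 1.03 FPKM in 4N- and 1.22 FPKM in 4N+ cells (ratio 0.846, 0.261 to 2.67). Hist3h2a, below 1 FPKM in both lines, was lower as well, at 0.659 FPKM in 4N- cells against 0.795 FPKM in 4N+ cells (ratio 0.829, 0.596 to 1.15).

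S phase genes were higher in the TTF 4N- line in 15 of 17 cases, by a median of 0.07, and production factors in 12 of 23, by a median of 0.02. Slbp stood at 51.8 FPKM in 4N- cells against 46.1 FPKM in 4N+ cells. Trophoblast markers summed to 55.6 FPKM in 4N- cells against 40.4 FPKM in 4N+ cells, and fibroblast markers to 3.48 FPKM in 4N- and 3.58 FPKM in 4N+ cells, with Lum at 0 in both. Most of the trophoblast sum was Krt18, at 38.5 FPKM in 4N- and 28.1 FPKM in 4N+ cells. Primitive endoderm markers summed to 8.22 FPKM in 4N- and 5.13 FPKM in 4N+ cells. The part of such cells in these values was not tested.

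**Figure D2:**
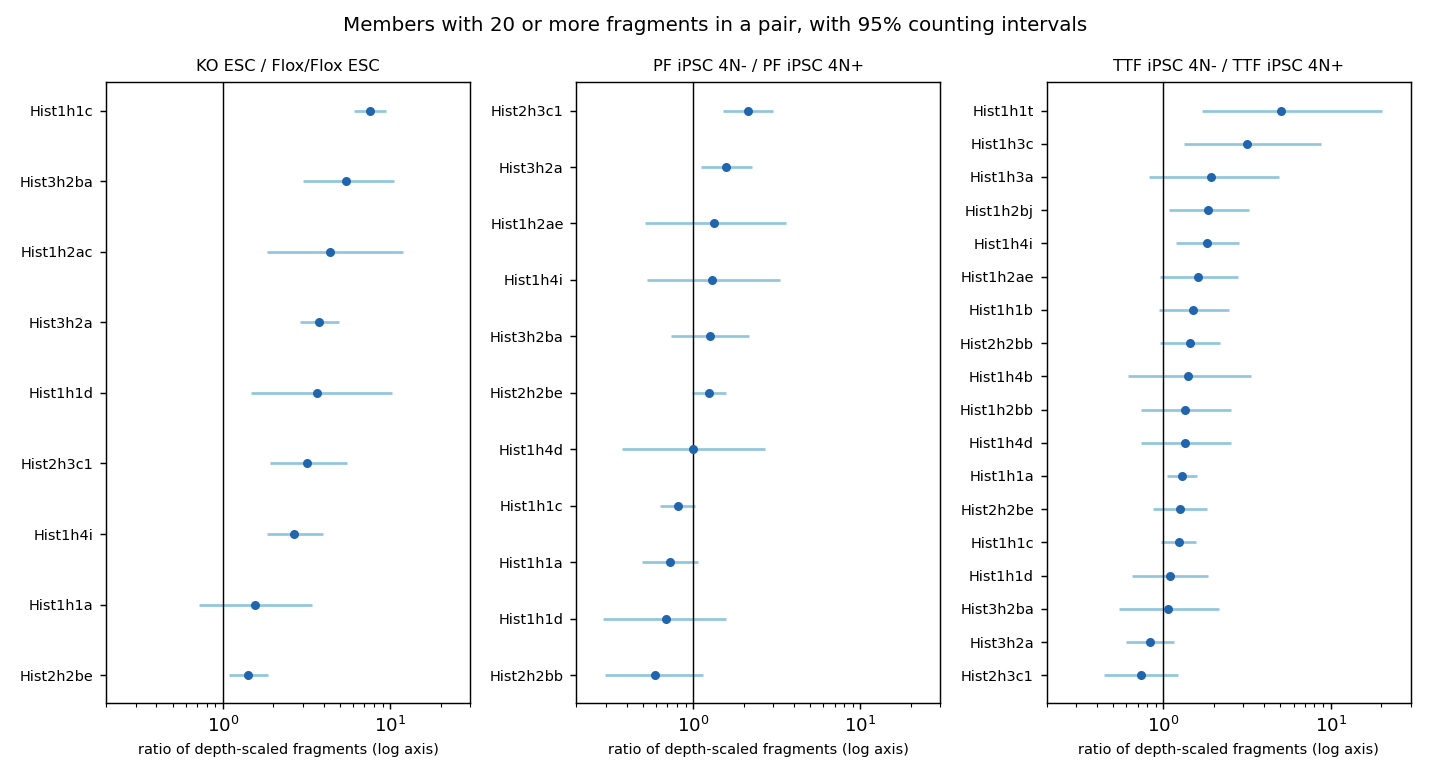
Ratios of depth-scaled fragments, KO over Flox/Flox ESC and 4N- over 4N+ iPSC (log axis, line at 1), for members with 20 or more fragments in a pair. Bars are conditional exact binomial 95% intervals for counting error only; Hist1h1a is the only ESC point whose interval includes 1, and most iPSC intervals include 1.

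When both 4N- lines were set against both 4N+ lines, no member passed the test. The 4 iPSC libraries were fitted with limma across 11985 genes with parental cells as a block, and 14 genes, or 0.117%, had a Benjamini-Hochberg adjusted p below 0.05. Of the 19 members tested none did, and none had an unadjusted p below 0.05. The smallest unadjusted limma p was 0.0546, for Hist1h4i, with a log2 difference of 0.39 ± 0.18 (SE) and an adjusted p of 0.999; it was higher in the 4N- line of both pairs. Hist1h3c followed at 0.42 ± 0.22 and Hist1h2bc at 0.28 ± 0.17 (adjusted p of 0.999 in limma for both). Hist1h1a and Hist1h1c, at 0.00 ± 0.17 and -0.01 ± 0.17, had opposite directions in the PF and TTF pairs. The fit leaves 1 residual degree of freedom per gene, so these p-values do not show that the 4N- and 4N+ lines are alike.

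The order of the classes depended on the measure. By summed FPKM, with Hist1h2bc included, H2B genes led in all 6 libraries, at 31.1 FPKM in KO ESC and 8.53 FPKM in Flox/Flox ESC, against 12.3 FPKM in KO ESC and 2.32 FPKM in Flox/Flox ESC for H1. Among H4 genes the sums were 9.02 FPKM in KO ESC and 3.30 FPKM in Flox/Flox ESC. By fragments, which leave out Hist1h2bc, H1 genes led in KO ESC, with 15.3 per 1000000 effective fragments against 2.37 in Flox/Flox ESC. They also led in the TTF lines, with 7.85 per 1000000 in the 4N- and 5.97 in the 4N+ line. H2A genes stood at 6.61 per 1000000 in KO ESC against 1.85 in Flox/Flox ESC, and H2B genes at 5.53 in KO ESC against 2.83 in Flox/Flox ESC. These fragment sums are not scaled to length. H3 genes stood at 3.02 per 1000000 in the PF 4N- line against 1.42 in the PF 4N+ line.

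**Figure D3:**
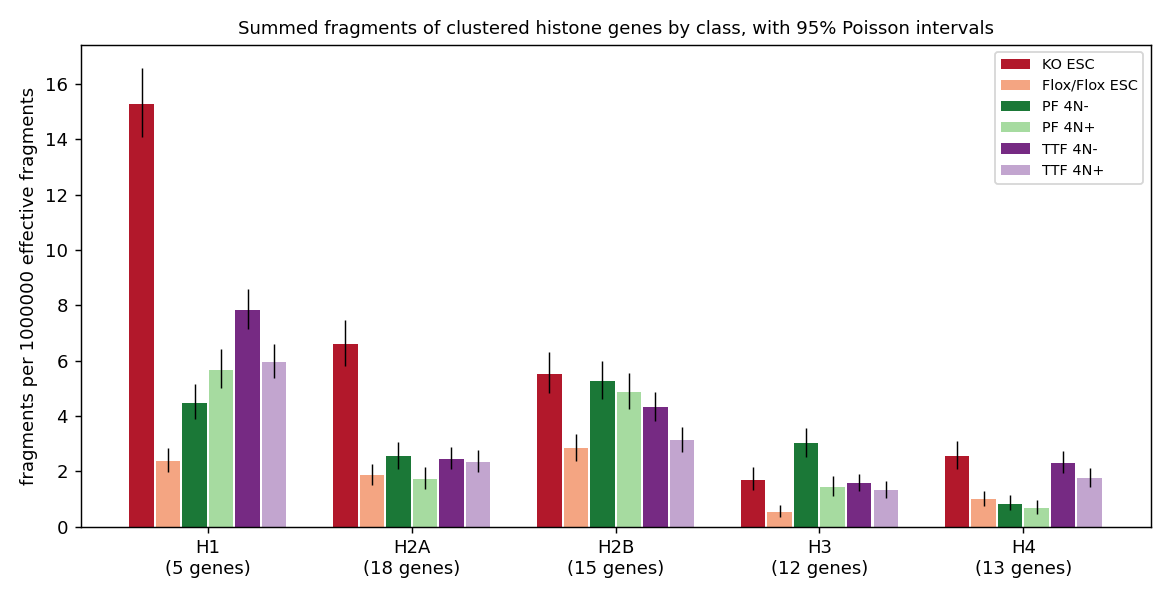
Fragments per 1000000 effective fragments summed over the members of each histone class with fragment counts (y axis), for the 6 libraries. Bars start at 0 and error bars are 95% Poisson intervals for counting error; the KO ESC H1 bar, at 15.3, is the tallest.

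Members were also described by their position along the Hist1 cluster. On mm9 the Hist1 genes fell into 4 blocks of chromosome 13. The block from 21807632 to 21929399 holds 17 members and gave 6 to 70 fragments in a library, with 6 members at 0 throughout. The block from 23622913 to 23856283 holds 29 members, 1 of them at 0 throughout. The 26 of them in the fragment sums gave 656 fragments in KO ESC against 141 in Flox/Flox ESC (ratio 5.94, 4.94 to 7.18). Hist1h2bc, Hist1h1e and Hist1h2be lie in this block but have no fragment counts, so they are left out of its sums. Hist1h1c supplied 549 of those in KO ESC and 93 in Flox/Flox ESC, and without it the block gave 107 against 48 (ratio 2.85, 2.01 to 4.09). In that block the PF 4N- line had 254 fragments against 296 in the PF 4N+ line, and the TTF 4N- line had 667 against 479 in the TTF 4N+ line.

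Members were further split by how far their GENCODE model runs past the stem-loop. The 21 with fragment counts and 100 or more further bases gave 1048 of the 1237 fragments in KO ESC and 274 of 426 in Flox/Flox ESC (ratio 4.88, 4.27 to 5.6), and without Hist1h1c the ratio was 3.52 (2.96 to 4.19). The 22 with fewer gave 34 in KO ESC and 15 in Flox/Flox ESC (ratio 2.89, 1.53 to 5.72). The 20 without the stem-loop letters gave 155 in KO ESC and 137 in Flox/Flox ESC (ratio 1.44, 1.14 to 1.83). Most of these came from 1 gene, Hist2h2be, with 118 in KO ESC and 106 in Flox/Flox ESC. For the 4N- over the 4N+ line the ratios of the longer group were 1.24 (1.07 to 1.43) in the PF pair and 1.17 (1.03 to 1.33) in the TTF pair. Those of the group without the letters were 1.03 (0.862 to 1.24) in the PF pair and 1.33 (1.14 to 1.54) in the TTF pair. Hist2h2be supplied 164 of 247 fragments of that group in the PF 4N- line and 132 of 239 in the PF 4N+ line. Its part was 71 of 421 in the TTF 4N- line and 55 of 307 in the TTF 4N+ line. In the TTF pair the shorter group gave 179 fragments in the 4N- line and 113 in the 4N+ line (ratio 1.53, 1.20 to 1.96). In the PF pair it gave 30 fragments in the 4N- line and 42 in the 4N+ line (ratio 0.714, 0.432 to 1.17). Fragments were counted on the deposited gene models, which can be shorter than the GENCODE transcripts. Hist1h4d spans 312 bp there against 1138 bases in GENCODE, so the split does not always describe the counted stretch. Longer deposited models collect more fragments at the same level, so these are sums of what was sequenced and not levels per length.

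Many H2A and H2B genes are known to sit head to head with a short shared upstream region. The tables hold 12 neighbouring pairs of an H2A and an H2B gene less than 400 bp apart. Hist1h2ac, chosen after its values were seen as the neighbour of Hist1h2bc, ends 239 bases before Hist1h2bc begins on mm9 and is read in the opposite direction in GENCODE. It stood at 0.268 FPKM in KO ESC and 0.0613 FPKM in Flox/Flox ESC, from 24 and 7 fragments (ratio 4.38, 1.83 to 12.0), beside 22.1 FPKM in KO ESC and 5.05 FPKM in Flox/Flox ESC for Hist1h2bc. Both were thus higher in KO ESC, at very different levels. In the pair of Hist3h2bb-ps and Hist3h2a, 172 bp apart, Hist3h2bb-ps stood at 0.13 FPKM at most in any library.

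Promoter letters were searched on both strands in the RefSeq windows of 300 bases, 250 before and 50 after the start, of the 60 members that matched 1 RefSeq gene. The octamer ATTTGCAT, the site of the factor OCT-1, was found for 7 of 17 H2A and 7 of 15 H2B genes. It was found for none of the H1, H3 and H4 genes, against 1.74% of all 32851 windows. Windows of neighbouring H2A and H2B genes can overlap, so the same octamer can count for both, as for Hist1h2ae and Hist1h2bg. CCAAT was in 51 of the 60, with 3 of 12 among H4 genes, against 37.4% of all windows. TATAAA was in 35 of 60, against 13.6%. None of the 3 motifs contains another. A match is a description of the letters and not of binding. The upstream 250 bases of Hist1h2ac, at GRCm38.p6 chr13:23683960-23684209 on the minus strand, reach back towards Hist1h2bc, which has no window of its own here. They are shown with those of Hist1h1c, at GRCm38.p6 chr13:23738557-23738806 on the plus strand, because these stand upstream of the pair of genes with the highest FPKM in KO ESC. Capitals mark the 3 motifs in either orientation.
Hist1h2ac: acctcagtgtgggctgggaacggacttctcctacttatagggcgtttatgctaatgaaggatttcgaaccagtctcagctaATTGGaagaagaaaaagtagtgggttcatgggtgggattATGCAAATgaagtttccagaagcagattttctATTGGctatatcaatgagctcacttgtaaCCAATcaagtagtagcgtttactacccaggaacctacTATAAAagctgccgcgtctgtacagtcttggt
Hist1h1c: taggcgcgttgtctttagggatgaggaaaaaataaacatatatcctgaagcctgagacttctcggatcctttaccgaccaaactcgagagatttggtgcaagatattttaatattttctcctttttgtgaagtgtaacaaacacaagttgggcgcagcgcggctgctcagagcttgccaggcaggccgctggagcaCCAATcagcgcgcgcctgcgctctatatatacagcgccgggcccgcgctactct
The window of Hist1h2ac holds all 3 motifs and that of Hist1h1c holds CCAAT.

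The testis members and the lone H4 gene of chromosome 6 were close to 0. Hist1h1t, a linker histone of male germ cells, had 1 fragment in each ESC library, 1 in the 4N- and 2 in the 4N+ PF line. In the TTF pair it had 21 fragments in the 4N- line and 4 in the 4N+ line (ratio 5.08, 1.71 to 20.3), at 0.485 FPKM in 4N- and 0.0955 FPKM in 4N+ cells. Hist1h2aa had at most 5 fragments in any library, reached in the TTF 4N- line. Its neighbour Hist1h2ba had at most 1. Hist4h4 had no fragment in KO ESC and 2 in Flox/Flox ESC, 3 in the 4N- and 2 in the 4N+ line from PF, and 5 in the 4N- and 6 in the 4N+ line from TTF.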

How the data were processed

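The authors deposited 3 tables, each with FPKM for 2 libraries over the same 22558 gene rows, together with p-values, q-values and a significance call, per the file headers. The authors' fold change and test statistic columns (units other than expression) were not used. Reads passed through CASAVA and TopHat2 on mm9, per the submitters' processing notes; the quantifier, annotation and strand use were not given in those sources. Values were analysed as log2(FPKM + 1), which understates changes of low genes. A gene was measured in a pair at 1 FPKM or more in at least 1 library, and members 2-fold apart were counted without a test. The iPSC fit used limma 3.58.1 in R 4.3.3 (trend, parental block, Benjamini-Hochberg). Parental cells as block come from the labels; they are not shown to be 1 animal.

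Effective depth was fitted on 1267 short intronless genes with fragments of 200 ± 80 bases, cut below 45; it is a scaling divisor, not the number of mapped reads. Depth and limma steps were tested on simulated data. Named members were the 3 with the highest mean FPKM per class, those at least 2-fold apart in a pair, Hist3 and Hist4 genes and 3 testis members, 20 in all. Members and lists were chosen with earlier results of these data known.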

Additional observations from a re-analysis of the deposited data

Results flagged for a closer look

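Of the named members at 1 FPKM or more in a library of both iPSC pairs, 3 had opposite directions in the PF and TTF pairs. The difference between the pairs was not tested. Hist1h1a differed between 4N- and 4N+ by -0.32 in the PF pair and by 0.31 in the TTF pair on the log2(FPKM + 1) scale, 0.63 apart. Hist1h1c differed by -0.21 in the PF pair and 0.19 in the TTF pair, 0.41 apart. Hist2h2bb, which has a near-identical copy, differed by -0.47 in the PF pair and 0.39 in the TTF pair, 0.86 apart.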

How the results depend on the processing

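In KO against Flox/Flox ESC, 5 of 7 members were at least 2-fold higher. The count was 5 of 43 with no filter on low values and 3 of 3 with a minimum of 5 FPKM. It was 5 of 6 without members that have a near-identical copy, and 6 of 7 with a pseudocount of 0.1 or centred on all genes. The members' median log2 difference of 1.18 was 2.11 with a pseudocount of 0.1, 0.19 with no filter on low values, 1.93 with a minimum of 5 FPKM, 1.38 when centred on all genes (shift -0.20) and 1.33 without members that have a near-identical copy. The summed fragment ratio of 3.71 was 2.64 without Hist1h1c, chosen after seeing the data. In the PF pair the count of 0 was 1 with a pseudocount of 0.1, and the median of 0.09 was 0.26 when centred. In the TTF pair the count of 0 was 2 with a pseudocount of 0.1, and the median of 0.34 was 0.47 with that pseudocount, 0.10 with no filter and 0.15 with a minimum of 5 FPKM. No PF member reached 5 FPKM, so that setting gave no value. Among named members, 7 of 120 values moved beyond counting error or 0.1, and none of those changed direction. Centring turned the sign of 4 of 60 values, all small: in the ESC pair Hist1h2aa (-0.15 to 0.06), Hist1h2ag (-0.01 to 0.19) and Hist4h4 (-0.02 to 0.18), and in the PF pair Hist1h1t (-0.04 to 0.12). The pseudocount turned 0 of 60.

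Over the 4 iPSC libraries limma called 14 genes with the parental block and 3 with no replicate block. It called 0 with no filter (602 at an unadjusted p below 0.05), 67 with a minimum of 5 FPKM, 94 without small RNA genes, and 8 to 22 with 1 library left out (8 without the PF 4N- line, 22 without the TTF 4N- line). Members called by limma were 0 under each setting that kept all 4 libraries, with 0 to 4 at an unadjusted p below 0.05. The block changed no call of a member. The causes of these differences were not tested. Ratios of members with few fragments have intervals that span several-fold.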
